A study of Mus musculus with 12 samples.

Results

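The miR-29 family was followed in small RNA libraries from the mouse hippocampus before and after electroconvulsive shock (ECS), a brief current across the head that depolarizes neurons throughout the brain. The family has 3 members, miR-29a, miR-29b and miR-29c, cut from 4 hairpins. A tag, that is, a distinct insert sequence with its read count, was given to a member when its whole length matched one of these hairpins exactly. The 3 members were taken from 705 miRNAs that had at least 1 count, and their 6 arms from 1064 such arms (the 5p and 3p sides of a hairpin are its arms). Together they held 118 distinct tags and 1674169 counts, which was 5.58% of the 30022027 counts with an exact miRNA match. No tag of the family matched another miRNA, and 2 counts matched both miR-29b and miR-29c.

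The 12 libraries came from the hippocampi of individual male C57BL/6NCrl mice. Untreated mice (NT) gave 2 libraries, and mice killed 0.5 h, 1 h, 3 h, 6 h or 24 h after ECS gave 2 libraries per time. By its number, the first of each pair belongs to time course 1 (NT-1, 0.5h-1 and so on) and the second to time course 2. Course 2 is the biological repeat, which was sequenced after course 1 was complete. Each group is thus 2 mice, and each mouse is in a different sequencing course. Which untreated library belongs to which course is in doubt. The study reports more known miRNA reads for its NT-1 than for its NT-2. Here NT-1 held 1067558 exact miRNA counts and NT-2 4282006, the opposite order. At every time after ECS the pair had the same order in both. The untreated libraries are placed by their labels throughout. As whole tissue was used, fewer cells of a type cannot be told apart from less miRNA per cell. The study set out to ask how neuronal activity changes miRNA levels, and it described a batch difference between its 2 time courses.

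A miRNA is cut from a hairpin by Drosha and Dicer and guides the RNA-induced silencing complex to mRNAs that pair with its seed, the bases 2 to 8 from its 5′ end. miR-29 is known for repressing collagens and other matrix genes, the DNA methyltransferases Dnmt3a and Dnmt3b, and BH3-only proteins that promote cell death in neurons. Its level rises as the brain matures, and it is abundant in adult neurons and astrocytes.

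The mature 3p sequences in RefSeq (GRCm38.p6) are shown first because the reads of the 3 members can only be told apart where these differ. The seed is in capitals.
miR-29a-3p: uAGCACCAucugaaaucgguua
miR-29b-3p: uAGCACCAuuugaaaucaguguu
miR-29c-3p: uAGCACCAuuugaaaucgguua
All 3 carry the seed AGCACCA, which no other name among the 1679 mature miRNAs of the same table has. In the next lines the capitals mark the bases that differ from miR-29a.
miR-29b-3p: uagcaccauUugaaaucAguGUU
miR-29c-3p: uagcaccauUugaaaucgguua
Counted from the 5′ end, miR-29c differs from miR-29a by C10U alone. miR-29b differs from miR-29a by C10U, G18A, U21G and A22U, and is 23 nt long where the others are 22 nt. A tag of 18 nt that starts at the first base therefore already separates all 3 members; one that ends before base 18 does not separate miR-29b from miR-29c.

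The 5p arms share no seed with the 3p arms, and their seeds differ among the members.
miR-29a-5p: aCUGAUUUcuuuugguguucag
miR-29b-1-5p: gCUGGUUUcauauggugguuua
miR-29b-2-5p: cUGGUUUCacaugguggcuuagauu
miR-29c-5p: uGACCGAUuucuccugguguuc
The 5p lines are shown because miR-29b has 2 hairpins with different 5p arms, which lets those reads be placed, whereas their 3p arms are the same.

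The hairpins lie in 2 pairs (GENCODE M21, GRCm38). Mir29a is on chromosome 6, minus strand, from 31062660 to 31062747, and Mir29b-1 lies 275 bases upstream of it on the same strand, from 31063023 to 31063093. Both are intergenic except that the last 2 bases of Mir29b-1 by coordinate overlap the only exon of Gm27019, a long non-coding RNA of that strand. On chromosome 1, plus strand, Mir29b-2 runs from 195037040 to 195037120 and Mir29c, 426 bases further on, from 195037547 to 195037634. Both are exonic, within exon 3 (the last) of the non-coding transcript A330023F24Rik-204. On the minus strand the same bases lie in exon 11 of Cd46-203, the last exon of a transcript of a complement regulator.

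The libraries held 1897490 to 7657222 accepted reads. Exact miRNA counts ranged from 439336 (6h-1) to 2219779 in course 1 and from 1321437 (6h-2) to 4282006 in course 2. The miRNA share of accepted reads was 10.1% to 32.7% in course 1 and 50.9% to 69.6% in course 2. By this share NT-1 (29.1%) and NT-2 (56.5%) lay inside the ranges of their labelled courses. By its longest tag NT-1 did not. That tag was 34 nt in NT-1 and in every course 2 library, against 30 nt in the rest of course 1. NT-1 stood apart by its short tags: 51.97% of its counts for other miRNAs came from tags of 18 or 19 nt, against 0.924% to 17.2% in the other 11 libraries. The marker list for neurons (miR-124, miR-128, miR-9, miR-138 and miR-218) had all 5 members above 0 in every library and summed to 6.07% at the lowest. The oligodendrocyte list (miR-219 and miR-338) summed to 0.273% to 1.82% and the muscle list (miR-1, miR-133a and miR-206) to 0.258% to 1.69%. The choroid plexus list (miR-204, miR-211 and miR-449a, 2 of them at 0 in a library) summed to at most 0.0349%, and the liver marker miR-122 was at 0.000910% to 0.0321%.

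miR-29a was by far the most abundant member. Its 3p arm held 1606104 counts, 95.9% of the family, and ranked 8 among the 1064 arms by mean share of miRNA counts. The miR-29c 3p arm held 60230 counts (3.60%) and ranked 56, and the miR-29b 3p arm 7282 counts (0.435%) and ranked 140. The 5p arms held 170 (miR-29a), 187 (miR-29b) and 194 (miR-29c) counts.

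In time course 1 the miR-29a 3p arm made up 1.51% (NT-1), 7.57% (0.5h-1), 2.77% (1h-1), 4.97% (3h-1), 1.56% (6h-1) and 7.30% (24h-1) of miRNA counts. In time course 2 the same arm made up 4.90% (NT-2), 9.23% (0.5h-2), 4.69% (1h-2), 2.30% (3h-2), 10.8% (6h-2) and 4.49% (24h-2). The levels of the 2 courses overlapped.

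The miR-29c 3p arm followed a similar course at a lower level. It made up 0.0549% (NT-1), 0.204% (0.5h-1), 0.0673% (1h-1), 0.0682% (3h-1), 0.0371% (6h-1) and 0.195% (24h-1) of miRNA counts in course 1. In course 2 its shares were 0.191% (NT-2), 0.400% (0.5h-2), 0.148% (1h-2), 0.0783% (3h-2), 0.720% (6h-2) and 0.178% (24h-2). The courses overlapped here too, with 6h-1 lowest and 6h-2 highest.

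The miR-29b 3p arm behaved differently, and its courses did not overlap. It made up 0.0111% (NT-1), 0.00826% (0.5h-1), 0.00727% (1h-1), 0.00253% (3h-1), 0.00250% (6h-1) and 0.00860% (24h-1) of miRNA counts in course 1. In course 2 it made up 0.0151% (NT-2), 0.0378% (0.5h-2), 0.0472% (1h-2), 0.0269% (3h-2), 0.0470% (6h-2) and 0.0237% (24h-2). The course 1 values rest on few reads, from 11 counts in 6h-1, a share with a 95% Wilson interval of 0.00140% to 0.00448%, to 191 counts in 24h-1. Of 469 arms tested, 2.77% had every course 2 library above every course 1 library.

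**Figure D1:**
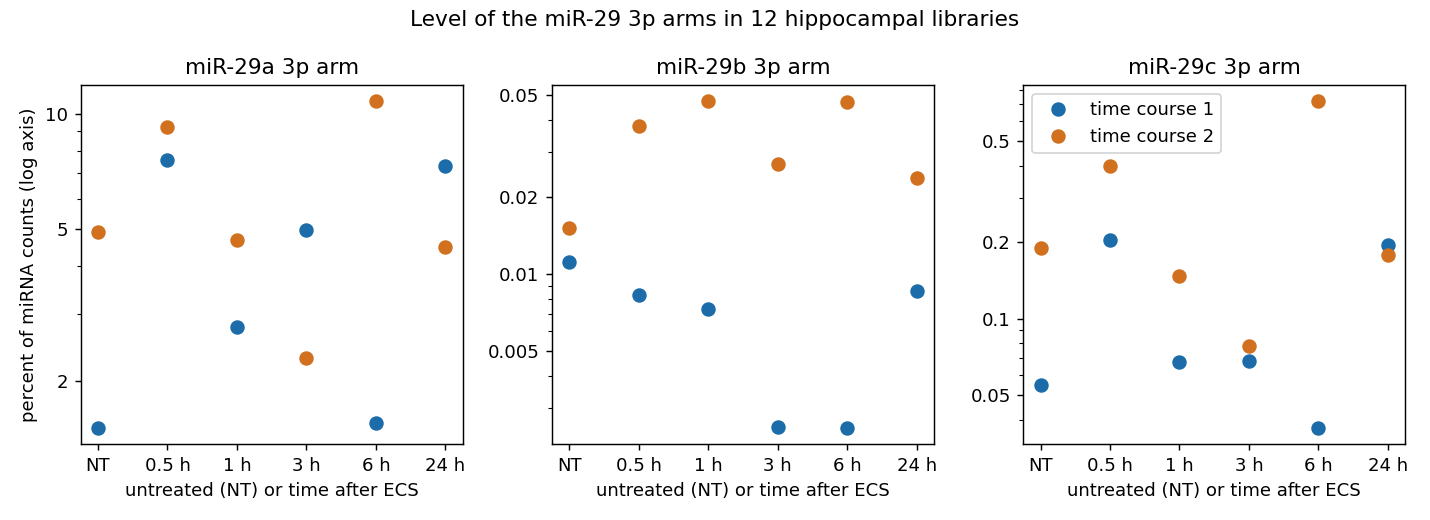
Share of miRNA counts (percent, log axis, a separate scale in each panel) held by the 3p arm of each member in untreated mice (NT) and at 5 times after ECS; each point is 1 library, coloured by time course. For miR-29b all 6 libraries of course 2 lie above all 6 of course 1, while for miR-29a and miR-29c the courses overlap.

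The order of the members was the same in 12 of 12 libraries: miR-29a above miR-29c above miR-29b. miR-29a exceeded miR-29c by 15.0-fold (6h-2) to 72.8-fold (3h-1), a mean log2 ratio of 4.98. miR-29c exceeded miR-29b by 2.91-fold (3h-2) to 26.9-fold (3h-1), a mean log2 ratio of 3.36. Exact permutation tests of the sign of each ratio over 12 libraries gave two-sided p = 0.000488 for both, the smallest that sign flips of 12 libraries allow, and 0.00403 after Benjamini-Hochberg adjustment over the 33 permutation tests made. The ratios compare counts of tags, and how well each sequence is ligated and amplified was not measured.

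Because miR-29c differs from miR-29a at 1 base, misread miR-29a tags could be counted as miR-29c. Over the first 18 nt, tags with the miR-29c base at position 10 were 1.69% (3h-1) to 8.87% (6h-2) as many as those of miR-29a. The same kind of change, C to T, at the 4 other C positions in that stretch had medians of 0.0820% (6h-2) to 0.502% (6h-1). Its highest value at any of those positions was 1.39%, in 6h-1, beside 3.03% at position 10 in that library. For miR-29b against miR-29c the deciding base is G18A. Tags with that base were 4.05% (3h-1) to 36.8% (3h-2) of the miR-29c tags, and G to A at the 2 other G positions reached at most 2.68%, in 6h-1, beside 10.1% there. Both minor members were above the substitution level in 12 of 12 libraries.

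The first comparison asked whether the family changed after ECS. No arm of the family, and 0 of 469 arms in all (0% called), was called at any of the 5 times (edgeR's quasi-likelihood test, adjusted p under 0.05). From the earliest time to the latest, 9, 2, 10, 9 and 7 arms had an unadjusted p below 0.05, and none of them was a miR-29 arm. DESeq2 called 1 arm at 0.5 h and 2 at 3 h (0.213% and 0.426% called), again none of the family.

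For miR-29a 3p the log2 fold change against untreated was 1.34 (0.5 h, SE 1.20), -0.04 (1 h, SE 1.18), 0.54 (3 h, SE 1.19), 1.48 (6 h, SE 1.21) and 1.12 (24 h, SE 1.20). That of miR-29c 3p was 1.27 (SE 1.41), -0.41 (SE 1.39), -0.31 (SE 1.39), 2.21 (SE 1.45) and 0.88 (SE 1.40) at the same times. For miR-29b 3p it was 0.95 (SE 1.67), 1.10 (SE 1.68), 0.85 (SE 1.67), 1.63 (SE 1.70) and 0.81 (SE 1.67). Over the 30 tests of a miR-29 arm at a time the lowest adjusted p was 0.988. The numbering of the libraries pairs the mice by time course. With the time course as a block, no miR-29 arm was called at any time either (0% of all arms called), the lowest adjusted p in the family was 0.656, and 1 of the 30 tests had an unadjusted p below 0.05 (miR-29a 5p at 0.5 h, log2 fold change 2.75, SE 1.18). The block brought the standard errors of the miR-29a 3p arm to 0.91 to 0.97, those of miR-29b 3p to 0.95 to 1.01 and those of miR-29c 3p to 1.00 to 1.05.

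**Figure D2:**
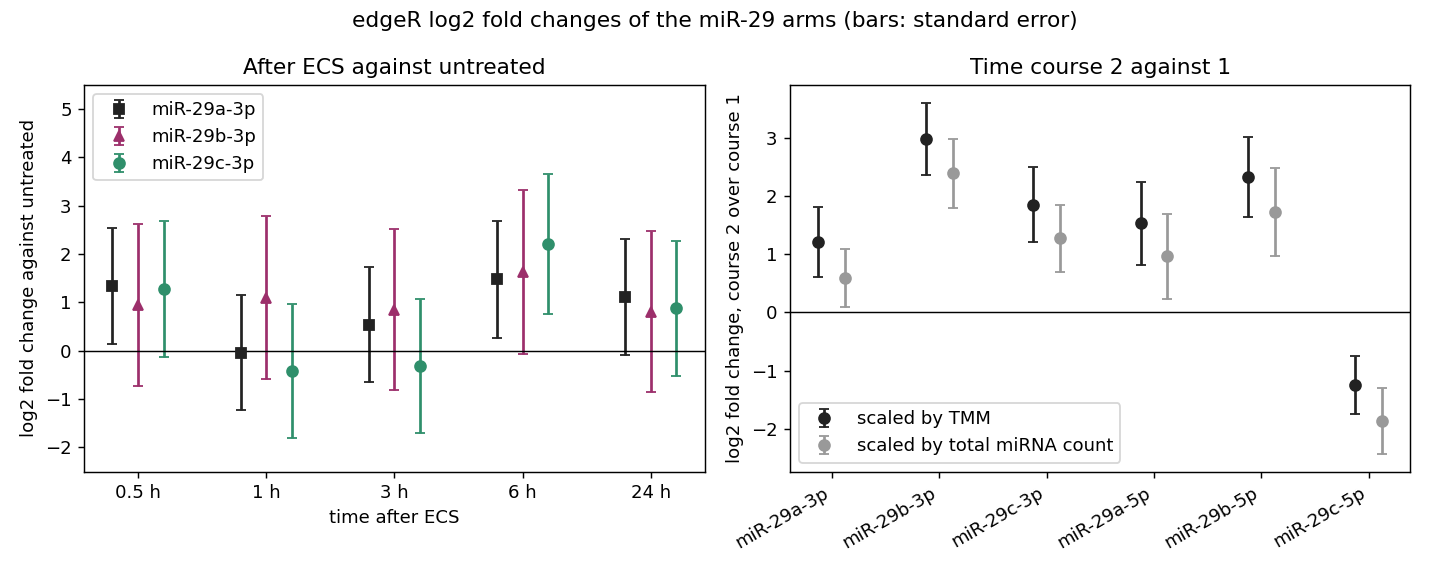
Log2 fold changes from edgeR with their standard errors (bars). Left, each 3p arm at 5 times after ECS against untreated (n = 2 libraries a group), where no adjusted p is below 0.988. Right, all 6 arms in time course 2 against 1 (n = 6 libraries each) with counts scaled by TMM (black) or by the total miRNA count (grey); only miR-29c-5p lies below 0 under both.

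Against the untreated mouse of its own course, miR-29a 3p in course 1 was at 5.003-fold (0.5h-1), 1.83-fold (1h-1), 3.29-fold (3h-1), 1.03-fold (6h-1) and 4.83-fold (24h-1). In course 2 the same ratios were 1.88 (0.5h-2), 0.957 (1h-2), 0.470 (3h-2), 2.20 (6h-2) and 0.917 (24h-2). Both courses were above 1 only for 0.5 h and 6 h, the latter by 1.03-fold in course 1, and the other 3 times lay on opposite sides of 1. The untreated library of course 1 is the one with the short tags, and its part in the higher ratios of that course was not tested. All these ratios place the untreated libraries by their labels, which is in doubt, and an exchange would change them. Set against NT-2 (4.90%), 6h-1 (1.56%) would lie below 1 and 24h-1 (7.30%) above it.

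miR-29b 3p was below NT-1 in all 5 ECS libraries of course 1, at 0.741-fold (0.5 h), 0.652-fold (1 h), 0.227-fold (3 h), 0.225-fold (6 h) and 0.772-fold (24 h). It was above NT-2 in all 5 ECS libraries of course 2, at 2.50-fold, 3.12-fold, 1.78-fold, 3.11-fold and 1.57-fold. Each direction rests on 1 untreated mouse.

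Over all times the family's share was higher in ECS than in untreated libraries by a mean log2 difference of 0.79, which was 0.17 without NT-1 and 1.42 without NT-2. It was within the spread of the libraries (exact permutation test of the 36 choices of 1 untreated library per course, two-sided p = 0.361, smallest possible 0.0278, adjusted p = 0.458). The same test gave p = 0.361 for miR-29a, 0.972 for miR-29b and 0.639 for miR-29c (exact permutation tests). As group means, the family made up 3.34% ± 2.49 (NT; SD, n = 2 in each group), 8.73% ± 1.33 (0.5 h), 3.87% ± 1.44 (1 h), 3.73% ± 1.86 (3 h), 6.57% ± 7.03 (6 h) and 6.10% ± 1.99 (24 h) of miRNA counts. The SD of the 6 h group exceeded its mean.

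The second comparison set time course 2 against time course 1, with the time point in the model. It called 3 of the 6 miR-29 arms, all higher in course 2, where 32.2% of 469 arms were called (19.8% higher and 12.4% lower). miR-29b 3p had a log2 fold change of 2.98 (SE 0.62, adjusted p = 0.00365, edgeR's quasi-likelihood test). miR-29b 5p had 2.32 (SE 0.69, adjusted p = 0.0215), and miR-29c 3p 1.85 (SE 0.65, adjusted p = 0.0427). The other arms were not called. miR-29a 3p had 1.20 (SE 0.60, adjusted p = 0.131), miR-29a 5p 1.53 (SE 0.71, adjusted p = 0.109) and miR-29c 5p -1.25 (SE 0.50, adjusted p = 0.0666).

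The scaling mattered. Scaling by the total miRNA count in place of TMM (trimmed mean of M values, edgeR's estimate of a common scale) moved the median log2 fold change of all arms from 0.29 to -0.30, a shift of 0.59, and turned the split of calls from 93 higher and 58 lower to 49 higher and 113 lower. Then 34.5% of arms were called, 10.4% higher and 24.1% lower, and 2 of the miR-29 arms. miR-29b 3p was again higher (2.39, adjusted p = 0.00561) and miR-29c 5p was lower (-1.87, adjusted p = 0.0181), while miR-29c 3p (1.27, adjusted p = 0.0947) and miR-29b 5p (1.72, adjusted p = 0.0847) were no longer called. Relative to the median of all arms the values were close under both scalings: 2.69 and 2.68 for miR-29b 3p, 1.56 and 1.57 for miR-29c 3p, and 0.91 and 0.89 for miR-29a 3p (TMM and total). DESeq2 called 4 of the 6 arms (47.3% of all arms called, 26.7% higher and 20.7% lower), the 3 above and miR-29c 5p, which was lower (-1.32, adjusted p = 0.0347). The calls of miR-29c 3p and miR-29b 5p also depended on single libraries. Leaving out each library in turn, miR-29b 3p was called in 12 of 12 fits, miR-29b 5p in 5 and miR-29c 3p in 4 (adjusted p 0.0305 to 0.119). The miR-29c 3p call was lost without either NT, 0.5 h, 1 h or 6 h library, and the miR-29b 5p call without either 0.5 h or 3 h library or without 1h-2, 6h-2 or 24h-2.

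Ratios between members do not depend on the scaling. The ratio of miR-29c to miR-29a 3p counts was higher in course 2 at 6 of 6 time points, by a mean of 0.75 on the log2 scale. That count takes the untreated pair as labelled. With NT-1 and NT-2 exchanged it would be 5 of 6, as would every other 6 of 6 given below. An exact permutation test that swapped the pair of libraries of a time point (64 arrangements) gave p = 0.03125, two-sided, the smallest this design allows, and 0.0938 after adjustment over 33 tests, so that no flip test here could pass 0.05 alone. The ratio of miR-29b to miR-29a was higher by 1.79 on the log2 scale at 5 of 6 time points (exact permutation p = 0.0625, adjusted p = 0.129). miR-29a accordingly held 97.3% ± 0.89 (SD, n = 6) of the family's 3p counts in course 1 and 95.4% ± 1.00 in course 2, again lower at 5 of 6 time points (exact permutation p = 0.0625). The family's share as a whole was 4.39% ± 2.82 in course 1 and 6.39% ± 3.46 in course 2 (SD, n = 6 each), higher at 4 of 6 time points (exact permutation p = 0.344).

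Sums over the cell type lists stand beside these, and single arms of a list could go another way than its sum. The neuron list summed to 14.3% to 31.2% of miRNA counts in course 1 and 6.07% to 16.6% in course 2. The vessel wall list (miR-126, miR-143 and miR-145, all above 0 in every library) summed to 6.30% to 14.5% of miRNA counts in course 1 and 0.565% to 1.65% in course 2. The blood cell and microglia list (miR-142, miR-223, miR-451, miR-144 and miR-486, 1 of 5 at 0 in a library) summed to 0.133% to 1.15% and 0.0373% to 0.257%. The astrocyte-linked list of 5 miRNAs, all above 0 in every library, summed to 0.623% to 2.41% and 0.343% to 0.676%. By arm (edgeR, TMM), 1 of 10 neuron, 2 of 6 vessel wall, 2 of 6 blood cell and 0 of 9 astrocyte-linked arms were called lower in course 2. In these lists 0 arms were called higher, where 19.8% of all arms were higher and 12.4% lower. The oligodendrocyte, muscle, choroid plexus and liver lists reached at most 1.40%, 1.10%, 0.00712% and 0.0247% in course 1. In course 2 they reached 1.82%, 1.69%, 0.0349% and 0.0321%. Of the arms of these 4 lists, in the same order, 0 of 4, 0 of 3, 1 of 2 and 1 of 1 were called higher in course 2, and 0 lower. The part of these lists in the difference of the miR-29 arms was not tested, and the course cannot be told apart from the preparation and sequencing of its libraries.

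Tag length differed among members and libraries. The most abundant miR-29a 3p tags had lost 2 bases, none or 1 base of the RefSeq sequence at the 3′ end, and are shown with the seed in capitals because the length results turn on them.
miR-29a 20 nt: tAGCACCAtctgaaatcggt
miR-29a 22 nt: tAGCACCAtctgaaatcggtta
miR-29a 21 nt: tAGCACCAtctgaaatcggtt
They held 587200, 497093 and 404031 counts, or 36.6%, 31.0% and 25.2% of the arm. The same 3 ends held 49.5% (20 nt), 32.0% (22 nt) and 17.1% (21 nt) of miR-29c 3p.

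In course 2 the 20 nt tags of miR-29a held 39.7% to 48.8% and the 22 nt tags 23.5% to 39.5%, with 21 nt lower than both in 5 of 6 libraries. In course 1 the 22 nt share was 34.4% (NT-1), 43.0% (0.5h-1), 14.5% (1h-1), 5.48% (3h-1), 1.93% (6h-1) and 38.2% (24h-1). It was thus low at 1, 3 and 6 h in that course only, where 21 nt tags held 52.9%, 60.7% and 47.3%. miR-29c moved the same way in course 1, with 22 nt shares of 40.4%, 56.6%, 22.6%, 11.4%, 10.4% and 51.5% from NT-1 to 24h-1. The same 3 libraries in course 2 (1h-2, 3h-2 and 6h-2) had miR-29a shares of 37.7%, 39.5% and 23.5%. Tags of at least 22 nt of all other miRNAs held 4.36%, 10.9%, 7.996%, 4.95%, 1.24% and 9.87% of their counts in the 6 libraries of course 1 and 29.7% to 49.6% in course 2. The share of such tags was larger in miR-29a than in the other miRNAs in all 6 libraries of course 1, at 1.93% to 43.1%, and smaller in all 6 of course 2, at 23.9% to 40.6%. The mean length of miR-29a 3p was 20.9 nt in both courses (SD 0.28 and 0.060, n = 6 each; exact permutation p = 0.469).

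The miR-29b 3p arm was longer in course 2. Its 2 leading tags are the full sequence and the form 1 base shorter.
miR-29b 23 nt: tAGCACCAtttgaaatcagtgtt
miR-29b 22 nt: tAGCACCAtttgaaatcagtgt
The 23 nt tags held 21.01% (NT-1), 2.07% (0.5h-1), 23.2% (1h-1), 13.2% (3h-1), 0% (6h-1, of 11 counts) and 1.57% (24h-1) of the arm in course 1. In course 2 they held 22.9% (NT-2), 61.2% (0.5h-2), 59.1% (1h-2), 53.7% (3h-2), 28.99% (6h-2) and 52.4% (24h-2). The mean length was 20.7 nt ± 0.37 in course 1 and 22.1 nt ± 0.26 in course 2 (SD, n = 6 each), longer by 1.44 nt and at 6 of 6 time points (exact permutation p = 0.03125, adjusted p = 0.0938). Other miRNAs were also longer in course 2, with mean lengths of 20.9 to 21.2 nt against 19.6 to 20.6 nt. Whether this accounts for the length of miR-29b was not tested. miR-29c did not go the same way: its mean length was lower by 0.15 nt in course 2, at 5 of 6 time points (exact permutation p = 0.281).

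**Figure D3:**
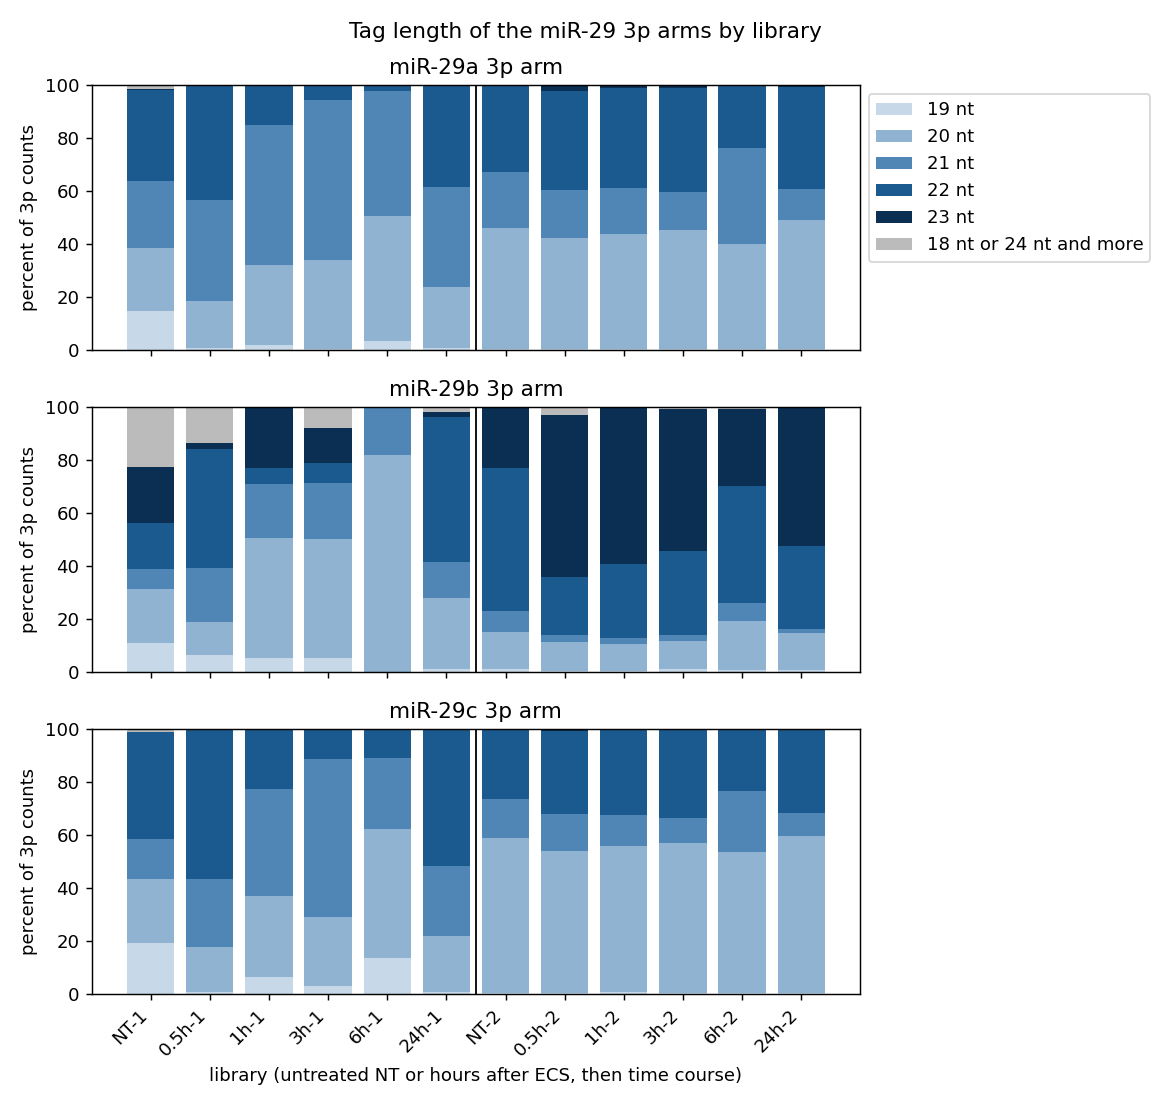
Share of the 3p counts of each member (percent) by tag length in the 12 libraries, course 1 left and course 2 right of the line. The 22 nt share of miR-29a and miR-29c is low in 1h-1, 3h-1 and 6h-1, and the 23 nt share of miR-29b is 22.9% to 61.2% in course 2.

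The 5′ end decides the seed. miR-29a started at the RefSeq position in 93.5% of its 3p counts and 1 base upstream in 6.26% (100511 counts). The leading upstream tag held 51952 counts, and its seed, in capitals, belongs to no mature miRNA of the RefSeq table.
miR-29a upstream start: cTAGCACCatctgaaatcggtt
The upstream share was 4.95% (NT-1), 6.22% (0.5h-1), 6.86% (1h-1), 5.77% (3h-1), 8.02% (6h-1) and 5.83% (24h-1) in course 1. In course 2 it was 4.43% (NT-2), 10.5% (0.5h-2), 4.62% (1h-2), 4.38% (3h-2), 4.35% (6h-2) and 4.68% (24h-2). The 0.5h-2 library, with the most miR-29a counts, stood apart from the other 5 of its course. Among the 17 other arms with an upstream share of at least 1% on average, that library was the highest of its course in 6. Their median share in 0.5h-2 was 9.48%, inside the range of the rest of that course (4.09% in 6h-2 to 12.1% in 24h-2). In course 1 the 0.5h-1 library was the highest in 7 of the 17, but not for miR-29a.

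miR-29c rarely showed this start. Its upstream share was 0% to 1.23%, the highest being 2 counts in 6h-1, and 71 of 60230 counts (0.118%) in all. The share was higher for miR-29a in 12 of 12 libraries, by a mean of 5.69 percentage points (exact permutation test over 12 libraries, p = 0.000488, adjusted p = 0.00403). The same start held 1.25% of the miR-29b 3p counts matching Mir29b-2. Of 85 arms with a single hairpin, 10 had a higher upstream share than miR-29a, and the median was 0.165%.

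At the RefSeq start, miR-29c held 97.0% ± 3.13 of its counts in course 1 and 99.7% ± 0.063 in course 2 (SD, n = 6 each), higher in course 2 at 6 of 6 time points (exact permutation p = 0.03125, adjusted p = 0.0938). The share of miR-29b was 91.9% ± 6.26 and 97.9% ± 1.26, higher at 5 of 6 (exact permutation p = 0.0625). Counted off the start for miR-29b were 17 counts of a loop tag of Mir29b-1, in 3 libraries of course 1. So were 60 counts, all of course 2, of a tag that only Mir29b-2 holds, although it starts at the RefSeq base. Their part in the difference was not tested. The share of miR-29a, 93.2% ± 0.95 and 94.4% ± 2.44, did not differ beyond the spread (exact permutation p = 0.3125).

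The 5p arms, the strands that are mostly discarded, were rare. They made up 0.0106% of the miR-29a counts, 2.50% of the miR-29b counts and 0.321% of the miR-29c counts. For miR-29b the 5p arm tells the hairpins apart: 185 of 187 counts matched Mir29b-2 and 2 matched Mir29b-1, so that Mir29b-2 held 98.9% (95% Wilson interval 96.2% to 99.7%). A 24 nt 3p tag that only Mir29b-2 holds had 60 counts, in 6 libraries, all of course 2, although its last base could also be an added T. The 1 tag that only Mir29b-1 holds on the 3p side started 17 bases before the mature sequence, in the loop, and had 17 counts in 3 libraries of course 1. The other 7205 counts of the arm fit both hairpins and cannot be divided.

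The most abundant 5p tags, shown for their 5′ ends, were these.
miR-29a-5p: aCTGATTTcttttggtgttca
miR-29b-5p: cTGGTTTCacatggtggctta
miR-29c-5p: gACCGATTtctcctggtgtt
For miR-29c the tag starts 1 base after the RefSeq 5p sequence, which gives another seed. This start held 68.0% of the 194 counts, against 14.9% at the RefSeq start and 15.5% at 2 bases after it. The 5p arms of miR-29a and of Mir29b-2 started at the RefSeq base in 99.4% and 80.0% of counts.

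The 5p share of miR-29c was higher in course 1. It was 2.82% (NT-1), 0.527% (0.5h-1), 3.37% (1h-1), 1.25% (3h-1), 4.68% (6h-1) and 0.529% (24h-1) of the member's counts there. In course 2 it was 0.122% (NT-2), 0.141% (0.5h-2), 0.293% (1h-2), 0.521% (3h-2), 0.0631% (6h-2) and 0.136% (24h-2). These are 6 to 32 counts a library, and the courses just failed to overlap. The difference was 1.98 percentage points at 6 of 6 time points (exact permutation p = 0.03125, adjusted p = 0.0938). As a share of all miRNA counts miR-29c 5p was also lower in every library of course 2 than in any of course 1, which held for 11.7% of all 469 arms. The 5p shares of miR-29a and miR-29b did not differ beyond the spread (exact permutation p = 0.9375 and 0.4375).

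**Figure D4:**
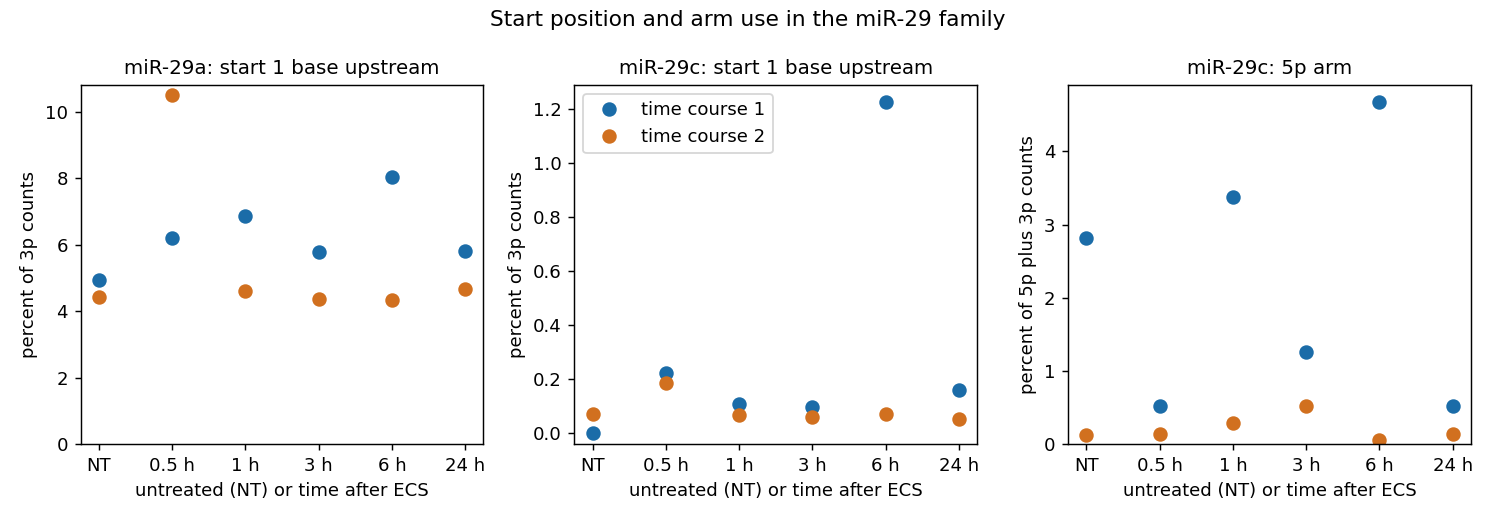
Share of 3p counts that start 1 base upstream in miR-29a (left) and miR-29c (middle), and share of the miR-29c counts from its 5p arm (right), in percent with separate scales; each point is 1 library. The 0.5h-2 library is highest for miR-29a (10.5%), 6h-1 for miR-29c (1.23%, 2 counts), and all 6 course 2 libraries have a lower miR-29c 5p share than the course 1 libraries.

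Tags with 1 base added to the 3′ end that the hairpin does not hold were counted apart. An added base that matches the hairpin cannot be seen, such as T after the 20 nt or A after the 21 nt tag of miR-29a. The shares thus depend on tag length. On average 20 nt tags held 29.3% of miR-29a 3p in course 1 and 44.1% in course 2, and 21 nt tags 43.6% and 19.8%. The part of this in the differences below was not tested. For miR-29a an added T followed 0.679% ± 0.40 of 3p counts in course 1 and 2.29% ± 0.64 in course 2 (SD, n = 6 each), higher at 6 of 6 time points (exact permutation p = 0.03125, adjusted p = 0.0938). For miR-29c the same share was 1.25% ± 1.14 and 2.68% ± 0.69, higher at 5 of 6 (exact permutation p = 0.0625). An added G was more frequent on miR-29c in course 2 at 6 of 6 time points, at 1.42% ± 0.41 against 0.592% ± 0.41 (exact permutation p = 0.03125, adjusted p = 0.0938). It was not detected on miR-29b in course 1, where the arm held 11 to 191 counts a library, and followed 0.196% ± 0.15 in course 2. At that share the course 1 libraries would hold less than 1 such count each, so the courses cannot be compared. Added A and C had no unadjusted p below 0.05 on any member (exact permutation p of 0.0625 to 0.25), but their means were lower in course 2. Added C went from 2.03% ± 1.49 to 0.500% ± 0.072 on miR-29a, 4.06% ± 5.67 to 0.196% ± 0.093 on miR-29b and 1.97% ± 1.71 to 0.501% ± 0.085 on miR-29c. Added A went from 2.05% ± 1.52 to 1.19% ± 0.27, 2.88% ± 2.68 to 2.23% ± 1.37 and 2.19% ± 1.87 to 0.952% ± 0.21 (miR-29a, miR-29b and miR-29c). Bases added by an enzyme and read errors at the last base cannot be told apart here.

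The arms whose level was most like each member were sought among the 212 arms that reached 10 counts in every library, by Pearson's r of log2 CPM across 12 libraries, which share depth and time course. The arm most like miR-29a 3p was miR-29c 3p (r = 0.94), followed by miR-152-3p (0.91), miR-9-3p (0.83), miR-15a-5p (0.82) and miR-26b-5p (0.78). Those most like miR-29c were miR-29a, miR-26b-5p (0.94), miR-9-3p (0.93), miR-15a-5p (0.93) and miR-152-3p (0.89). miR-29b was most like miR-342-3p (0.96), let-7f-5p (0.91), miR-98-5p (0.90), miR-21a-5p (0.90) and miR-16-5p (0.89), and ranked 29 in likeness to miR-29a (r = 0.63). After the mean of each course was subtracted, miR-29a and miR-29c were still each other's first (r = 0.94), miR-342-3p was still first for miR-29b (r = 0.76), and miR-29b ranked 49 for miR-29a (r = 0.43). Within single courses of 6 libraries the order changed. In course 2 miR-29a and miR-29c were again each other's first (r = 0.99), but in course 1 let-7g-5p was first for miR-29a (0.98; miR-29c ranked 7, r = 0.94) and miR-152-3p for miR-29c (0.99; miR-29a ranked 4). For miR-29b, miR-125a-5p was first in course 1 (0.97) and miR-219a-5p in course 2 (0.92).

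Of 10 other miRNAs known to act on matrix, methylation or survival genes or to be abundant in mature brain, 9 could be tested, in 16 arms. None was called after ECS at any time, when 0% of all arms were called. Between the time courses, where 19.8% of all arms were higher and 12.4% lower, 2 of the 16 arms were higher in course 2, miR-212-5p (log2 fold change 2.19, SE 0.57) and miR-30c-5p (1.74, SE 0.52), and 2 were lower, miR-143-3p (-2.59, SE 0.48) and miR-101a-3p (-1.58, SE 0.55). Their median was 0.49, against 0.29 over all arms. As a sum the list went the other way, from 13.96% to 26.04% of miRNA counts in the libraries of course 1 to 2.53% to 6.60% in those of course 2.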

How the data were processed

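The deposited counts were whole numbers of reads per distinct tag of at least 18 nt. The authors made them from small RNA (gel fraction, Illumina DGE small RNA kit, Genome Analyzer IIx) with the miR-Intess pipeline, after adapter removal and before alignment, with no normalization. PCR reads carried no molecular identifiers, so intervals cover counting error only. Tags were matched here over their full length to the hairpins of 1087 miRNA names (GENCODE M21, GRCm38; names with a letter, such as miR-124a, stand for miR-124), which leaves out reads with an error or an added base; tags of several names were split equally. Arms with at least 10 counts in 2 libraries (469) were tested with edgeR 4.0.16 (TMM, quasi-likelihood, Benjamini-Hochberg over all arms, threshold 0.05), and the code was tested on simulated data. Permutation tests were exact and two-sided, and Wilson intervals came from scipy 1.17.1. DESeq2 1.42.0 was an alternative.

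Libraries were grouped by the labels, and their numbers were taken to mark the time course, as in the study's own numbering. For the untreated pair the read counts that the study reports do not match the labels. Deviations from group means correlated at 0.567 on average (0.361 to 0.811) over the 15 pairs of same-numbered libraries. No library was a duplicate. The genes named were the 3 members, their leading tags and, for each 3p arm, the 5 arms most like it. The members and lists were chosen with earlier results of these data known. Sequences came from RefSeq (GRCm38.p6) and the tags; the study aligned to another build, and the files hold no coordinates.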

Additional observations from a re-analysis of the deposited data

Results flagged for a closer look

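Of 38 groups of 6 libraries tested for a library far from the rest (Dixon's test), 7 were set apart, where chance gives about 1.9. In course 2, 0.5h-2 had a low share of miR-29a counts at the RefSeq start (89.4%, the others 95.2% to 95.5%) and a high share 1 base upstream for miR-29a (10.5%, the others 4.35% to 4.68%) and for miR-29c (0.186%, the others 0.0546% to 0.0736%). The first 2 of these are nearly the same measurement. In course 1, 6h-1 had a high share of miR-29a tags with an added base (11.3%, the others 3.49% to 6.33%) and of miR-29c tags starting upstream (1.23%, which is 2 counts). In course 2, 6h-2 had a low share of miR-29c tags with an added base (3.25%, the others 5.53% to 6.29%) and a low share of miR-29a among the family's 3p counts (93.4%, the others 95.5% to 96.0%). 6h-1 and 6h-2 are the libraries with the fewest miRNA counts of their courses.

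miR-29b 3p went opposite ways after ECS in the 2 courses, below the untreated library in all 5 libraries of course 1 and above it in all 5 of course 2. The mean change in its share of miRNA counts in course 1 less that in course 2 was -0.0267 percentage points. The difference was not tested.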

How the results depend on the processing

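With 2 libraries a group, single libraries set the direction of most changes after ECS, and none was called under any alternative. The time course as a replicate block, for libraries paired by course, gave log2 fold changes of 0.079 (DESeq2 with the block 0.16) for miR-29a 3p at 1 h, -0.21 (-0.30) for miR-29b 3p at 3 h and 0.25 (0.30) for miR-29c 3p at 3 h, each opposite in sign to the fit without it. miR-29a 3p at 1 h was also above 0 with RLE size factors (0.012), total scaling (0.22), counting by the first 18 nt (0.017), tags of 1 miRNA only (0.036) and DESeq2 (0.012). That block changed no call. DESeq2 with the block, added after the data were seen, called 2, 0, 5, 3 and 0 arms at the 5 times, none of miR-29.

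Leaving out each library in turn, the log2 fold changes that kept their sign ranged over 0.64 to 3.01 (0.5 h) and 0.41 to 2.78 (24 h) for miR-29a 3p and 0.55 to 3.02 and 0.16 to 2.63 for miR-29c 3p, most extreme without an untreated library or 0.5h-2. Those of miR-29a 3p that changed sign ranged over -0.78 to 1.62 (1 h), -0.18 to 2.21 (3 h) and -1.44 to 3.14 (6 h). For miR-29b 3p they were -0.72 to 1.73 (0.5 h), -1.25 to 1.97 (1 h), -2.28 to 1.55 (3 h), -2.75 to 2.59 (6 h) and -0.70 to 1.502 (24 h). For miR-29c 3p they were -1.31 to 1.34 (1 h), -1.07 to 1.44 (3 h) and -2.13 to 3.96 (6 h). The lone library left in a group is assumed to vary like the others.

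Between the courses 1 to 3 miR-29 arms were called without a library, 1 of them without either 0.5 h library, 1h-2 or 6h-2. The count over all arms fell from 151 to 92 without 1h-1 and 101 without 1h-2, and was 86 of 254 with at least 50 counts in 6 libraries, where fewer arms are tested; no other alternative moved it by over 1.5 times. Without a library a swap of pairs cannot reach 0.05, and the differences were -2.30 to -1.46 points (miR-29c 5p share), 1.39 to 1.53 nt (miR-29b length), 1.63 to 3.25 points (miR-29c start), 1.39 to 1.76 points (T added to miR-29a) and 0.75 to 0.89 points (G added to miR-29c). The range for G added to miR-29b, 0.144 to 0.22 points, only restates course 2, as none was counted in course 1. The miR-29a 5p share, not called, ranged from -0.0026 to 0.0061 points, and miR-29b after ECS from -1.14 to 1.22 on the log2 scale.

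With tags of at least 20 nt the lower share of miR-29a in the family (-2.07 points) had an unadjusted exact permutation p of 0.03125, the smallest possible, in place of 0.0625, its length difference turned to -0.012 nt and the change of miR-29b after ECS to -0.17 on the log2 scale. The cause was not tested. Without the block of time points miR-29c 5p was called lower in course 2 (-1.20, adjusted p = 0.0295, edgeR). Apart from leaving out a library, 58 values recomputed for the comparisons as a whole kept their direction and side of the threshold. Of those for single arms or members 210 did, 12 turned, 3 gained a call and 2 lost one.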
